A study of Daphnia magna with 24 samples.

Results

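A set of 3 array features that carry names of neurotransmitter biology were followed across the whole series. They are 4-aminobutyrate aminotransferase (DM00932P3), tyrosine 3-monooxygenase (DM00246P1) and nicotinic acetylcholine receptor beta 1 (DM00003P1), out of 14338 features on the array. They were picked by name from features that the authors list with a difference from Control. In the authors' deposited table each has a log2 value in 1 comparison only, which is 1.8 for the aminotransferase in Ag+, 0.7 for the monooxygenase in L-SiO2-NW and -0.3 for the receptor in S-PVP-NW. Those 3 contrasts are therefore described below without a test. Every other exposure's contrast with Control shares the Control arrays that entered that choice, so it is not independent of it.

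The animals were Daphnia magna, a freshwater crustacean of aquatic toxicology, grown in COMBO medium. Whole animals, about 20 per exposure, were exposed for 24 h to dissolved silver (Ag+), to long silver nanowires in a polyvinylpyrrolidone (L-PVP-NW) or silica coat (L-SiO2-NW), or to short wires coated likewise (S-PVP-NW and S-SiO2-NW). Control animals were kept in medium without silver, and the labels give neither a time nor a number of animals for them. Every silver form was given at 1/10 of its LC50, so the doses differ between groups, and the sources used here give neither the amounts of silver, nor the animals' age, nor whether replicates were separate cultures. With 4 single-colour arrays for each of 6 groups there are 24 arrays, and the p-values measure only the spread between them.

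Gamma-aminobutyric acid (GABA) is the main inhibitory transmitter at arthropod nerve and muscle synapses, and 4-aminobutyrate aminotransferase starts its breakdown to succinate. Tyrosine 3-monooxygenase, also called tyrosine hydroxylase, makes dopa from tyrosine, the step that limits the synthesis of dopamine in animals; in insects the same step also feeds the tanning of new cuticle. Nicotinic acetylcholine receptors are cation channels opened by acetylcholine, the main fast excitatory transmitter of the insect central nervous system, and beta 1 is one of their subunits. The RNA came from whole bodies, so a lower or higher share of a tissue and a lower or higher RNA level per cell cannot be told apart.

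The probes that define the members are shown because each value below is the brightness of a single probe of that sequence, as the authors' deposited table prints it.
4-aminobutyrate aminotransferase, DM00932P3: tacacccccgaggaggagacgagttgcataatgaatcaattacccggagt
tyrosine 3-monooxygenase, DM00246P1: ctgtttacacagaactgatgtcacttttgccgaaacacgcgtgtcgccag
nicotinic acetylcholine receptor beta 1, DM00003P1: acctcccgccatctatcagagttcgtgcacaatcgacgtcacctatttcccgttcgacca
The first and the second have 50 bases with 50% G or C, and the receptor probe has 60 bases with 53.3%. The longest run that a member shares on the same strand with any of the 1825 other probes listed there is 10, 10 and 12 bases, in the order printed. The names rest on protein searches by the authors. The aminotransferase sequence was identical to an Aedes aegypti protein at 33 of 84 aligned residues (39.3%, E value 4e-06), the monooxygenase to a bovine entry at 36 of 84 (42.9%, E value 6e-12) and the receptor to a Bombyx mori protein at 47 of 76 (61.8%, E value 9e-26). Against Daphnia pulex assemblies the aminotransferase sequence aligned over 433 bases (82.7% identical, E value 3e-70), whereas the other members gave only 17 and 21 identical bases (E values 0.38 and 0.002). The genomic positions of the members were not analysed here.

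Brightness differed in how far it stood above the array floor, taken as the 1st percentile of intensity on an array (41 to 50). A value was called dim when it lay under 2 times the lower quartile of its array, a limit of 100 to 116. The aminotransferase was above that limit on 13 of 24 arrays and spanned 1.29 to 22.2 times the floor. The monooxygenase was above it on 4 of 24 arrays, at 1.15 to 3.42 times the floor. The receptor was dim on all 24 arrays, at 1.07 to 1.44 times the floor, and between 6.61% and 55.4% of the features on the same array were dimmer. Arrays held 3513 to 5292 features above the limit, and 2 arrays of one group correlated at r = 0.918 to 0.977. The floor was 43.6 ± 1.44 in S-SiO2-NW, 42.2 ± 0.957 in S-PVP-NW, 41.8 ± 0.957 in L-SiO2-NW, 48.8 ± 0.957 in L-PVP-NW and 45.8 ± 0.5 in Ag+, against 47.5 ± 1.91 in Control (SD, n = 4 each). Both SiO2 groups and S-PVP-NW thus had floors below every Control array, and a slide or scan difference cannot be told apart from these exposures.

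**Figure D1:**
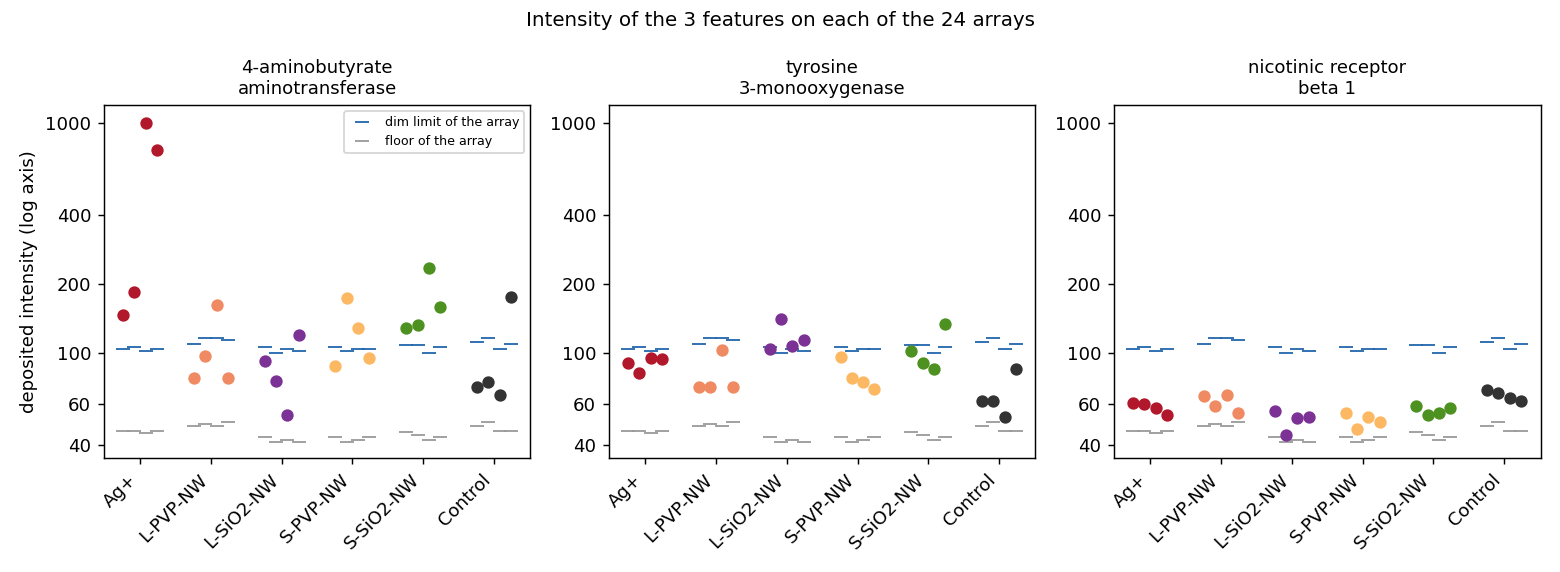
Deposited intensity (log axis) of each member on each of the 24 arrays, with each array's dim limit (blue dash) and floor (grey dash). Arrays of a group run from replicate 1 to 4 or A to D, left to right. The aminotransferase reaches 999 on an Ag+ array, the monooxygenase lies around the dim limit in L-SiO2-NW, and the receptor lies between 44 and 69 everywhere.

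The aminotransferase was brightest in Ag+. It read 147, 184, 999 and 761 on Ag+ arrays 1 to 4, against 71, 75, 66 and 176 on Control arrays 1 to 4. Ag+ arrays 3 and 4 stood far above arrays 1 and 2, Control 4 stood apart from the other Control arrays, and the deposited intensities overlapped because Control 4 exceeded Ag+ 1. On the normalised log2 scale the groups did not overlap, as was the case for 11.1% of all features with Ag+ higher. The normalised difference was 1.88 ± 0.38 (SE, n = 4 arrays per group, 95% interval 1.08 to 2.68), a 3.68-fold higher level in Ag+. With the dim Control arrays raised to the limit it was 2.36-fold higher, without allowance for sampling error. This is the contrast on which the feature was picked, so the values are a description. Mean intensity was 522.8 ± 424 in Ag+ and 97 ± 52.8 in Control (SD).

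Under the nanowires the aminotransferase stayed close to the dim limit. It read 78, 97, 161 and 78 on L-PVP-NW arrays A to D, and 92, 76, 54 and 120 on L-SiO2-NW arrays 1 to 4. It read 88, 174, 128 and 95 on S-PVP-NW arrays, and 129, 133, 234 and 158 on S-SiO2-NW arrays. All 4 S-SiO2-NW arrays were above the limit, against 1 of 4 Control arrays, and each nanowire group overlapped Control. The differences from Control were 0.56 in S-SiO2-NW (adjusted p = 0.438), 0.33 in S-PVP-NW (0.787), -0.18 in L-SiO2-NW (0.875) and 0.19 in L-PVP-NW (0.94), each ± 0.38 (SE). None passed the threshold of 0.05, and the upper ends of the 95% intervals were 1.36, 1.12, 0.61 and 0.99 in the same order. The shares of all features that passed in either direction were 4.74% in S-SiO2-NW, 1.35% in S-PVP-NW, 0.962% in L-SiO2-NW and 0.0279% in L-PVP-NW.

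Against Ag+ the aminotransferase was lower under 3 of the 4 nanowires. These contrasts share the Ag+ arrays on which the feature was picked, so a high Ag+ level enters each of them. It fell by 2.06 ± 0.38 log2 units in L-SiO2-NW (SE, adjusted p = 0.00241). Even the deposited intensities did not overlap there (5.12% of all features). It fell by 1.69 in L-PVP-NW (adjusted p = 0.00671) and by 1.56 in S-PVP-NW (adjusted p = 0.0126). With dim arrays raised to the limit these falls were 3.28-fold, 2.37-fold and 2.75-fold in the same order, without allowance for sampling error. The 95% intervals reached up to -1.27, -0.89 and -0.76 log2 units, so smaller falls are not excluded. The shares of all features that passed as lower than in Ag+ were 4.45%, 8.57% and 5.67% for these nanowires in the same order. In S-SiO2-NW, where 1.24% of all features passed as lower, the difference was -1.32 (adjusted p = 0.0708). Without Ag+ 3 or Ag+ 4 the S-PVP-NW call was lost (adjusted p = 0.0587 and 0.0553), and without Ag+ 1 the S-SiO2-NW difference of -1.68 passed (0.0111). Fitted on the arrays of the groups compared alone, the falls in L-SiO2-NW, L-PVP-NW and S-PVP-NW gave adjusted p = 0.0666, 0.0658 and 0.0963. Adding each array's floor to the fit left -1.06 in L-PVP-NW (adjusted p = 0.256).

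The order of normalised means ran from Ag+ through S-SiO2-NW, S-PVP-NW, L-PVP-NW and Control down to L-SiO2-NW. No 2 neighbours in that order differed past the threshold, with adjusted p = 0.0708 for S-SiO2-NW against Ag+ and 0.875 or more for the others.

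The monooxygenase was dimmer and its arrays were closer together. It read 104, 140, 107 and 114 on L-SiO2-NW arrays 1 to 4, against 62, 62, 53 and 85 on Control arrays 1 to 4. The groups did not overlap on either scale, as held, with L-SiO2-NW higher, for 4.87% of all features on the normalised scale and 3.95% as deposited. The difference was 0.75 ± 0.14 (SE, n = 4 arrays per group, 95% interval 0.46 to 1.04), given as a description because the feature was picked on it. All Control arrays were dim, and no fold is stated because the bound did not exceed 1-fold.

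In the other exposures the monooxygenase rose in Ag+ and in S-SiO2-NW, against the same Control arrays as in the contrast on which it was picked, where Control had the lowest mean of the 6 groups. It read 91, 82, 95 and 94 on Ag+ arrays and 102, 91, 85 and 134 on S-SiO2-NW arrays. In both groups every array exceeded Control 1, 2 and 3, and the lowest array met or lay under Control 4 at 85. The difference from Control was 0.53 ± 0.14 in Ag+ (adjusted p = 0.0123) and 0.50 ± 0.14 in S-SiO2-NW (adjusted p = 0.0475). For comparison, 10.3% of all features rose in Ag+ and 2.82% in S-SiO2-NW. After scaling to a common 75th percentile neither passed, with 0.24 in Ag+ (adjusted p = 0.265) and 0.18 in S-SiO2-NW (0.345). That scaling moved the median of all features by -0.25 in Ag+ and -0.40 in S-SiO2-NW, so relative to all features both values stayed positive. The S-SiO2-NW call was lost without any one of 17 of the 24 arrays (adjusted p up to 0.132, without Control 3), so it sits at the threshold.

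Under the PVP-coated wires the monooxygenase read 71, 71, 103 and 71 on L-PVP-NW arrays A to D, and 96, 78, 75 and 70 on S-PVP-NW arrays. In deposited intensity every one of these arrays lay above Control 1 to 3 and below the lowest L-SiO2-NW array. On the normalised log2 scale L-PVP-NW C (6.64) and S-PVP-NW 1 (6.71) exceeded L-SiO2-NW 1 (6.55). The differences from Control were 0.28 ± 0.14 in L-PVP-NW (adjusted p = 0.558) and 0.32 ± 0.14 in S-PVP-NW (0.321). L-SiO2-NW arrays all exceeded L-PVP-NW arrays in deposited intensity (3.93% of all features), and the coating difference at that length was 0.47 ± 0.14 (adjusted p = 0.06). The difference passed under median centring (0.53, adjusted p = 0.0293), with uncorrected intensities (0.57, adjusted p = 0.0255), without L-SiO2-NW 1 (0.57, adjusted p = 0.0381), without L-PVP-NW C (0.54, adjusted p = 0.041) and without Control 4 (0.47, adjusted p = 0.0457). It did not pass in 8 of 10 alternative settings or in 21 of 24 fits with 1 array left out. Over the alternative settings it was as low as 0.23, with adjusted p up to 0.948. It rests on the L-SiO2-NW arrays for which the feature was picked and is not independent of that choice.

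No nanowire group differed from Ag+ past the threshold for the monooxygenase. The differences were -0.04 in S-SiO2-NW, -0.21 in S-PVP-NW, 0.22 in L-SiO2-NW and -0.25 in L-PVP-NW, with adjusted p = 0.958, 0.386, 0.431 and 0.257. The order of normalised means ran from L-SiO2-NW through Ag+, S-SiO2-NW, S-PVP-NW and L-PVP-NW down to Control, and no 2 neighbours in it differed past the threshold. By mean intensity S-SiO2-NW (103 ± 21.8) stood above Ag+ (90.5 ± 5.92).

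**Figure D2:**
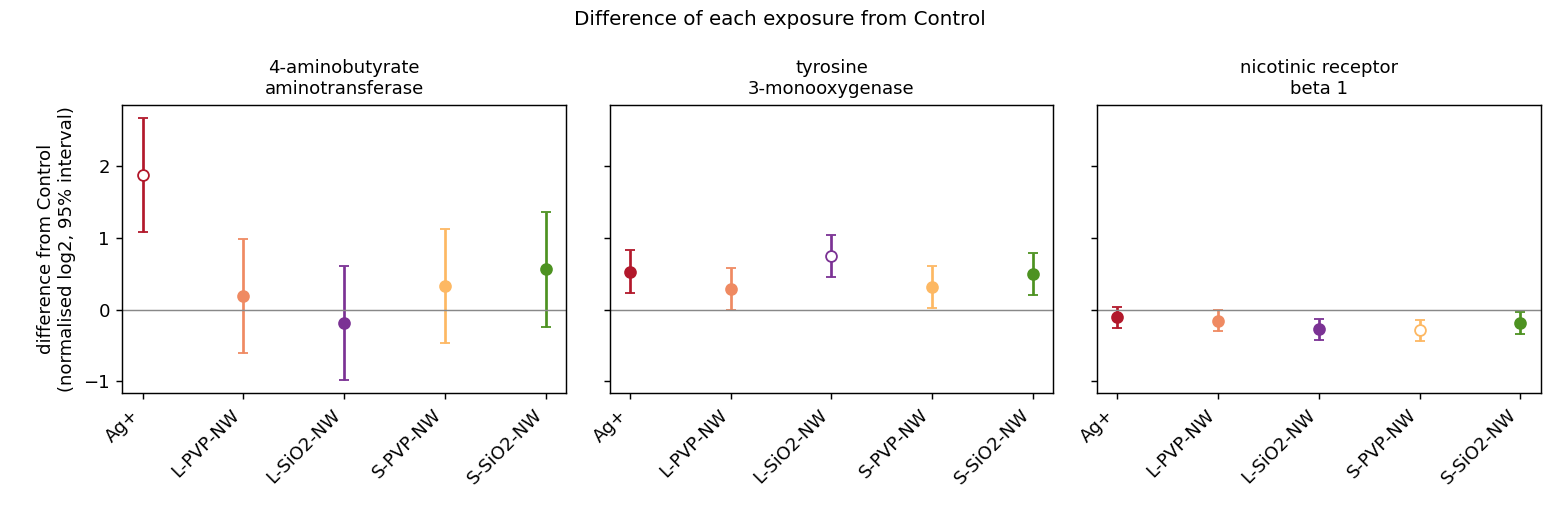
Normalised log2 difference of each exposure from Control for the 3 members, with 95% intervals (n = 4 arrays per group). Open circles mark the contrast on which a member was picked. The aminotransferase stands at 1.88 in Ag+, the monooxygenase differences span 0.28 to 0.75 and the receptor differences -0.28 to -0.11. The 5 differences of a member share the same Control arrays.

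The receptor lay near the floor on every array. It read 55, 47, 53 and 50 on S-PVP-NW arrays, 56, 44, 52 and 53 on L-SiO2-NW arrays and 59, 54, 55 and 58 on S-SiO2-NW arrays. It read 61, 60, 58 and 54 on Ag+ arrays and 65, 59, 66 and 55 on L-PVP-NW arrays, against 69, 67, 64 and 62 on Control arrays. The Control arrays were above all arrays of the other groups except 2 L-PVP-NW arrays. Such a separation, with Control higher, held for 9.11% of all features against Ag+, 6.81% against L-SiO2-NW, 5.45% against S-PVP-NW and 3.15% against S-SiO2-NW.

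The normalised difference from Control was -0.28 ± 0.07 in S-PVP-NW (SE, n = 4 arrays per group, 95% interval -0.43 to -0.14), the contrast on which the receptor was picked and so given without a test. It was -0.27 in L-SiO2-NW (adjusted p = 0.0659), -0.19 in S-SiO2-NW (0.132), -0.16 in L-PVP-NW (0.508) and -0.11 in Ag+ (0.324). None of these 4 passed. The L-SiO2-NW difference passed at adjusted p = 0.0489 with median centring, and without Control 4 it was -0.31 (adjusted p = 0.0276). It did not pass in 8 of 11 alternative settings (adjusted p up to 0.83) or in 22 of 24 fits with 1 array left out. No fold is stated, since both sides were dim.

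The array floor moved in the same direction as the receptor in every exposure except L-PVP-NW, where the floor differed from Control by 0.04 log2 units and the receptor by -0.10. On the log2 scale of deposited intensity the receptor differed from Control by -0.36 in S-PVP-NW and by -0.36 in L-SiO2-NW, while the floor itself differed by -0.17 and -0.19. The receptor minus the floor of its own array was 12.9 ± 2.11 intensity units in S-SiO2-NW, 9 ± 2.94 in S-PVP-NW, 9.5 ± 4.51 in L-SiO2-NW, 12.5 ± 6.14 in L-PVP-NW and 12.5 ± 3.11 in Ag+, against 18 ± 2.16 in Control (SD, n = 4 each). On this scale too Control was highest. With the array floor added to the fit, the receptor remained below Control in every exposure. None of the 4 tested differences passed in that fit, as in the reported one. The share of each difference that the floor accounts for was not tested.

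**Figure D3:**
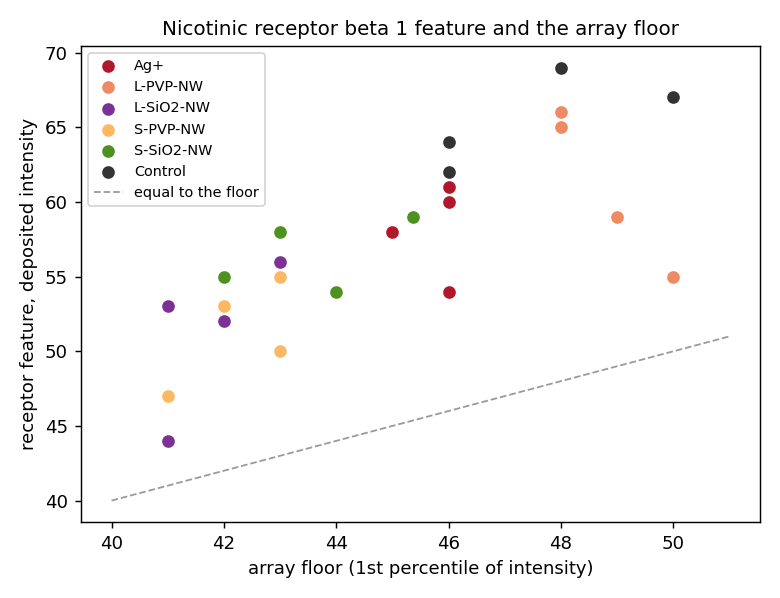
Deposited intensity of the receptor feature against the floor of the same array (1st percentile of intensity), 1 point per array, coloured by group. The dashed line marks equality. All points lie above the line by 3 to 21 units, and the SiO2 and S-PVP-NW arrays lie toward the low end of the floor axis. On the intensity axis the S-SiO2-NW arrays (54 to 59) lie within the range of the Ag+ arrays (54 to 61).

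Differences of the receptor from Ag+ were -0.08 in S-SiO2-NW, -0.18 in S-PVP-NW, -0.16 in L-SiO2-NW and -0.05 in L-PVP-NW, with adjusted p = 0.115 to 0.717. The order of normalised means ran from Control through Ag+, L-PVP-NW, S-SiO2-NW and L-SiO2-NW down to S-PVP-NW. On that scale the arrays of all neighbours overlapped, Control and Ag+ included.

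In the fit reported here, no coating or length difference passed the threshold in the 3 members. The one nearest to it was that of the monooxygenase among long wires, given above with the settings under which it passed. For the aminotransferase SiO2 minus PVP was -0.38 among long and 0.24 among short wires (adjusted p = 0.644 and 0.879). Long minus short was -0.74 with SiO2, where the arrays did not overlap (2.57% of all features), and -0.13 with PVP (adjusted p = 0.909 and 0.938). An interval of -1.54 to 0.05 for the SiO2 wires leaves a difference of that size undecided. For the monooxygenase SiO2 minus PVP was 0.18 among short wires (adjusted p = 0.659), and long minus short was 0.25 with SiO2 and -0.03 with PVP (0.944 and 0.958). For the receptor these 4 differences lay between -0.11 and 0.13 (adjusted p = 0.39 to 0.997). The coating effect in long minus that in short wires was -0.61 for the aminotransferase, 0.29 for the monooxygenase and -0.21 for the receptor (adjusted p = 0.882, 0.815 and 0.631). Of all features, 4.78% passed for coating among long wires, 0.9% for coating among short wires, 2.15% for length with PVP, 0.0349% for length with SiO2 and 0.0209% for the interaction.

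Other enzymes of the same pathways were taken from word lists over names with an E value of 0.001 or less. These lists draw on features that the authors had selected from these same arrays. The shares over all features given beside them are therefore not like for like. The GABA and glutamate list held 1 further feature, succinate-semialdehyde dehydrogenase (DM05925P4), the enzyme that oxidises the product of the aminotransferase. It rose in Ag+, with 660, 621, 1271 and 1056 on Ag+ arrays against 179, 343, 62 and 515 on Control arrays. The groups did not overlap, as held for 9.69% of all deposited features with Ag+ higher, and the difference was 1.61 ± 0.40 (adjusted p = 0.00827), where 10.3% of all features rose. That fit pooled all 24 arrays, and from the Ag+ and Control arrays alone adjusted p was 0.114. Under the nanowires it differed from Control by 0.97 in S-SiO2-NW, 1.21 in S-PVP-NW, 0.30 in L-SiO2-NW and 0.42 in L-PVP-NW, none past the threshold (adjusted p = 0.151 to 0.827). The authors' deposited table names no organism for its match and calls it non-significant (E value 8e-05).

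The other member of the GABA and glutamate list is the aminotransferase itself, which was picked on its Ag+ value, so neither a count nor a median of the list is given. Among 2 aminotransferase features the other was glutamate oxaloacetate transaminase 2 (DM02347P1), which exchanges amino groups between glutamate and aspartate. It read 1231, 1178, 1370 and 1544 on Ag+ arrays against 57, 802, 584 and 856 on Control arrays. Its difference was 1.31 ± 0.61 (adjusted p = 0.152), with 1 dim Control array.

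Dopa decarboxylase (DM02360P4), which turns dopa into dopamine and so follows the monooxygenase, was dim on all 24 arrays. It read 68, 75, 82 and 88 on Ag+ arrays against 48, 62, 58 and 64 on Control arrays, without overlap (9.69% of all features). It rose in Ag+ by 0.48 ± 0.11 (adjusted p = 0.00534), and after scaling to a common 75th percentile the difference was 0.19 (0.274). It also fell relative to Ag+ by 0.49 in L-PVP-NW (adjusted p = 0.00702) and by 0.43 in S-PVP-NW (0.0164). Of all features 8.57% and 5.67% passed as lower than in Ag+ in these groups. In L-SiO2-NW and S-SiO2-NW dopa decarboxylase differed from Ag+ by -0.32 and -0.22 (adjusted p = 0.0947 and 0.351). In L-SiO2-NW, where the monooxygenase stood highest, it differed from Control by 0.17 (adjusted p = 0.487). In S-SiO2-NW dopa decarboxylase differed from Control by 0.26 (adjusted p = 0.183). Of all features 10.3% passed as higher in Ag+ and 2.82% in S-SiO2-NW. The other feature of the catecholamine list is the monooxygenase itself, which was picked on a difference from these same Control arrays. Neither a count nor a median of that list is given.

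The cholinergic list held only the receptor, and neither the list of synaptic and neural names nor that of tanning enzymes had a member at that E value. The neural content of the RNA could therefore not be checked by markers other than those of the eye. Of 3 eye features, the light-sensing pigment opsin (DM02717P2) was the 1 that passed in Ag+, at 2.13 ± 0.52 (adjusted p = 0.0075). The share of all features that passed as higher there was 10.3%. Fitted on the Ag+ and Control arrays alone, the opsin difference did not pass (adjusted p = 0.0557). Of the arrestins, which bind opsin, arrestin 1 (DM03055P2) differed by -1.24 (adjusted p = 0.138) and arrestin 2 (DM01248P1) by 0.91 (adjusted p = 0.0754), so the eye features did not move in one direction. Opsin read 221, 720, 1716 and 2209 on Ag+ arrays against 100, 178, 132 and 226 on Control arrays. Arrays 3 and 4 were highest in Ag+, as for the aminotransferase. Summed over the 3 eye features, intensity was 1786 to 6901 in Ag+ and 1681 to 3589 in Control, with 1 arrestin lacking a value on Ag+ 2, and their part in the aminotransferase values was not tested.

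**Figure D4:**
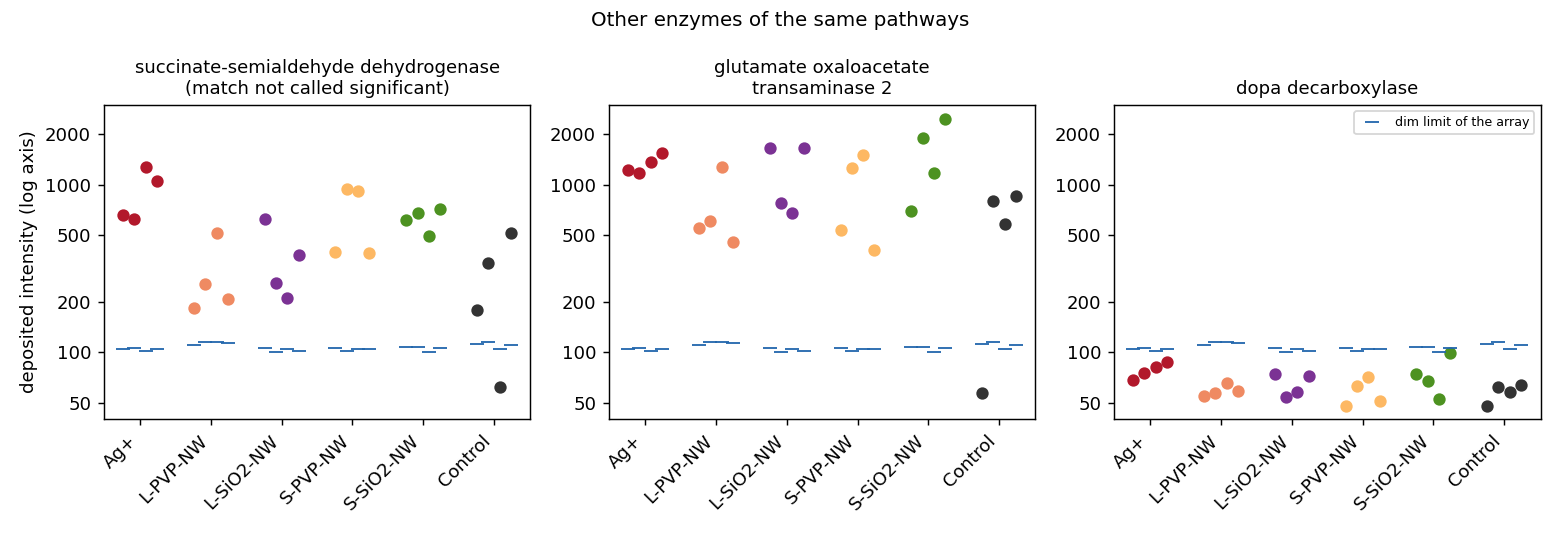
Deposited intensity (log axis) of 3 further enzymes of the same pathways on each of the 24 arrays, with each array's dim limit (blue dash). Succinate-semialdehyde dehydrogenase reads 621 to 1271 in Ag+ and 62 to 515 in Control, and dopa decarboxylase lies below the limit on every array.

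The features most like each member were sought among named features that were dim on fewer than 12 of the 24 arrays (334 or 335 features). The 5 nearest the aminotransferase by Pearson's r over normalised log2 values were a feature similar to CG5873 (DM01402P3, r = 0.914), angiotensin-converting enzyme (DM01048P1, 0.907), a papain family cysteine protease (DM02974P1, 0.86), RE74144p (DM02803P1, 0.849) and carboxypeptidase B (DM00410P1, 0.834), while the median over the pool was -0.145. Within groups, after subtraction of group means, r was 0.857, 0.867, 0.686, 0.88 and 0.751. These are descriptions over 24 arrays that share labelling and normalisation. Of the 5, 3 are named as peptidases, but the share of peptidases in the pool was not counted.

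The likeness showed in single arrays as well as in groups. Carboxypeptidase B read 484, 471, 1625 and 1363 on Ag+ arrays against 119, 135, 94 and 668 on Control arrays. The papain family protease read 1896, 542, 6526 and 8670 on Ag+ arrays against 113, 130, 115 and 983 on Control arrays. In both, as in the aminotransferase, Ag+ 3, Ag+ 4 and Control 4 stood above the other arrays of their groups. In S-SiO2-NW array 3 was highest for all 3, with 234 for the aminotransferase, 939 for carboxypeptidase B and 2020 for the protease.

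The summed intensity of digestive enzymes was high on some of the same arrays. Summed over the 21 features named as trypsin, chymotrypsin, carboxypeptidase or amylase, intensity was 10198, 12806, 33472 and 38652 on Ag+ arrays 1 to 4, and 12488, 25400, 30039 and 11398 on S-SiO2-NW arrays, against 5881, 10269, 7972 and 46132 on Control arrays. The sum was 11563 to 15886 in S-PVP-NW, 5468 to 7618 in L-SiO2-NW and 7228 to 12787 in L-PVP-NW. It did not follow the aminotransferase array by array, since S-SiO2-NW 4 had the lowest sum of its group and an aminotransferase intensity of 158, and Control 4 the highest sum of all arrays and an intensity of 176. In Ag+ 4 of the 21 features rose and none fell (10.3% and 7.53% of all features), with a list median of -0.03 against 0.0075 over all features, and between 6 and 9 of the 21 were dim on all arrays of a group. On other word lists, 10 of 13 features of the muscle list (median -1.36), 7 of 10 vitellogenin features (-1.90) and 8 of 19 cuticle features (-0.63) passed as lower in Ag+. None passed as higher. The muscle list matched parts of words and also held beta actin, an actin-depolymerizing factor and PIN2-interacting protein 1, so it is no list of muscle markers. Of all features 7.53% passed as lower. The lists draw on features that the authors had selected from these same arrays, so these shares are not like for like. The part of any tissue in the values of the 3 members was not tested.

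**Figure D5:**
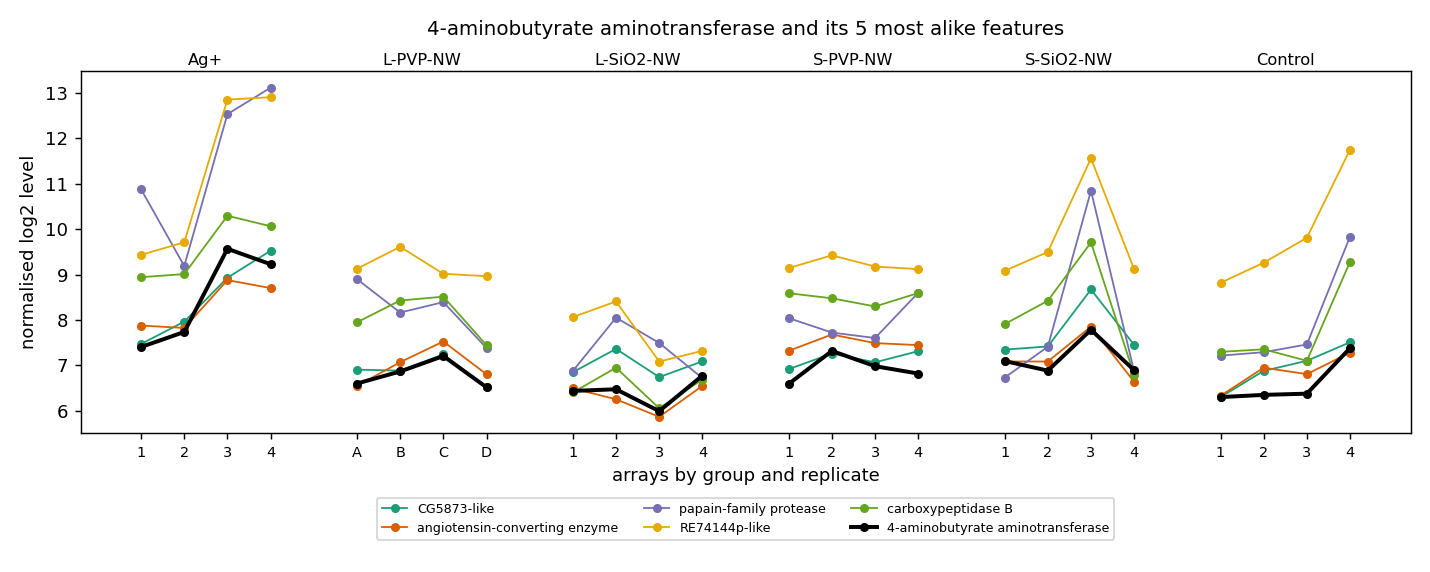
Normalised log2 level of 4-aminobutyrate aminotransferase (black) and of the 5 features most like it, by array. The lines peak together on Ag+ arrays 3 and 4 and on S-SiO2-NW array 3, and Control array 4 is above the other Control arrays for the aminotransferase.

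The monooxygenase had weaker likenesses. Its nearest features were a hypothetical protein (DM00714P1, r = 0.675), a cyclin G-like feature (DM05852P1, 0.634), a CG6755-like feature (DM01360P2, 0.628), folate receptor 1 (DM00876P2, 0.61) and a Kunitz-like protease inhibitor (DM01911P3, 0.609), with a pool median of -0.134. Within groups r was only 0.102 to 0.348, so the likeness lay mostly between groups. Control 3, the dimmest array for the monooxygenase at 53, was also the dimmest of all 24 arrays for the cyclin G-like feature (54), the CG6755-like feature (61), folate receptor 1 (71) and the hypothetical protein (96).

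The receptor was nearest to a CG8129 feature (DM02275P3, r = 0.722), a putative cuticle protein (DM00747P1, 0.673), a CG8745-like feature (DM02035P2, 0.619), a feature named after Spätzle 2 (DM02038P1, 0.527) and an outer arm dynein light chain (DM01147P4, 0.522), with a pool median of 0.0141. The cuticle protein read 81, 95, 155 and 116 on S-PVP-NW arrays against 662, 571, 571 and 380 on Control arrays, far from the floor in Control, and the receptor read 47 to 55 on S-PVP-NW and 62 to 69 on Control arrays. Within groups the 5 values of r were 0.212 to 0.616. Among themselves the 3 members were little alike, with r = 0.143 for the aminotransferase and the monooxygenase, 0.0152 for the aminotransferase and the receptor, and -0.449 for the monooxygenase and the receptor over the 24 arrays.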

How the data were processed

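The deposited intensity matrix holds whole numbers up to 65535 from single-colour arrays, and neither background subtraction nor scaling between arrays could be seen in it. Per the labels, Trizol RNA (300 ng) was labelled with Cy3 by Agilent's Quick-Amp kit. A second deposited table gives the authors' log2 ratios over the medium control, from 16 array-by-array comparisons per exposure per the labels, and expectation values (scores called E values here, per the file headers) of sequence searches. The sources used here do not give the scanner, the search program or the authors' normalization.

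The log2 of normexp-corrected intensities (offset 50) was quantile-normalised. That offset makes the differences of dim features smaller. On Ag+ 2, 310 features at exactly 0 were treated as missing, none of them a member. Differences were tested with limma 3.58.1 (R 4.3.3), with 1 mean per group over 24 arrays, eBayes without trend, two-sided, and Benjamini-Hochberg adjustment over all 14338 features at 0.05. A test was left out for the contrast with the smallest p of each member against Control. Bounds raise dim arrays to their limit of 2 times the lower quartile and carry no sampling error. The number of arrays limits the precision. The fit was tested on simulated data.

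Members, word lists and tests were chosen with earlier results of these data known, and the lists draw on features that the authors had selected from these same arrays. The features most like a member were the 5 with the highest r among named features dim on fewer than 12 arrays. Same-numbered arrays did not deviate together (40 pairs, r -0.446 to 0.429, median -0.0774 against 0.0579 for other pairs). A correlation over whole arrays cannot exclude a pairing that touches few features, so whether the numbers pair samples stays unknown. The RefSeq gene table matched 0 of the 3 members. Opsin and the intensities of single peptidases were singled out after their values were seen.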

Additional observations from a re-analysis of the deposited data

Results flagged for a closer look

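In 18 combinations of a member and a group, 1 array was checked for lying apart from the other 3 by the ratio of its gap to the group's range on the normalised log2 scale, against Dixon's critical value at 95%. Chance flags about 1 in 20 groups. For 4-aminobutyrate aminotransferase (DM00932P3) in Control the ratio was 0.93, with 7.38 on Control 4 and 6.30 to 6.38 on the other Control arrays (intensities of 176 and of 66 to 75). Without Control 4 the difference of L-SiO2-NW from Control was 0.08 in place of -0.18 (adjusted p = 0.949 and 0.875). For tyrosine 3-monooxygenase (DM00246P1) in S-PVP-NW the ratio was 0.838, with 6.71 on S-PVP-NW 1 and 6.33 to 6.39 on the other arrays of that group (intensities of 96 and of 70 to 78, which lie less far apart for their range). The cause was not tested in either case.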

How the results depend on the processing

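Over the tested contrasts of the members, leaving out 1 array kept the direction and the side of the threshold in 905 fits, lost a call in 19, gained one in 6 and turned the sign in 6. The other alternatives gave 379, 13, 10 and 12. The 3 contrasts described without a test moved by less than the replicate spread in 72 fits with 1 array left out and in 29 others, and by more in 4. For tyrosine 3-monooxygenase the Ag+ difference no longer passed at a common 75th percentile (0.24), with the array floor as a covariate (0.47) or with uncorrected log2 intensities (0.49, added after the data were seen). Its S-SiO2-NW difference did not pass at a common 75th percentile (0.18), from the arrays compared alone (0.50), with array weights (0.47), with trend and robust variance (0.50), with the floor covariate (0.37) or with the replicate block over the 20 numbered arrays (0.50, adjusted p = 0.0941), and ran from 0.44 to 0.60 with 1 array left out. Its L-SiO2-NW difference was 1.38 at an offset of 10 and 0.47 at a common 75th percentile. For the receptor the S-PVP-NW difference was -0.72 at an offset of 10 and -0.47 at a common 75th percentile. The S-SiO2-NW difference passed at a common 75th percentile (-0.60) but not in the other 10 alternatives. The L-SiO2-NW difference passed with median centring (-0.29), the replicate block (-0.27) and uncorrected intensities (-0.36), but not in the other 8 alternatives. With 1 array left out it ran from -0.31 to -0.23. The common 75th percentile moved the median of all features by -0.40 in S-SiO2-NW, -0.18 in S-PVP-NW, -0.31 in L-SiO2-NW and -0.25 in Ag+.

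Signs turned where differences were small. With the floor covariate the aminotransferase gave -0.25 in S-SiO2-NW and -0.77 in S-PVP-NW against Control, and 1.23 for L-PVP-NW minus S-PVP-NW. At a common 75th percentile, L-PVP-NW minus Ag+ was 0.0032 for the monooxygenase and 0.25 for the receptor (0.0701 uncorrected), and L-PVP-NW minus S-PVP-NW was 0.15 for the monooxygenase (0.18 with the floor covariate). There the receptor also gave -0.13 for S-SiO2-NW minus S-PVP-NW and 0.0192 for L-SiO2-NW minus S-SiO2-NW. The monooxygenase in S-SiO2-NW minus Ag+ gave 0.064 with median centring and 0.17 uncorrected. With 1 array left out, ranges crossed 0 for the aminotransferase in L-SiO2-NW minus Control (-0.30 to 0.0763), the receptor in L-PVP-NW minus Ag+ (-0.11 to 0.0069), and the monooxygenase in S-SiO2-NW minus Ag+ (-0.0878 to 0.0181) and L-PVP-NW minus S-PVP-NW (-0.11 to 0.0533). The cause was not tested.

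Counts of features past the threshold depended on the setting. Over the alternatives other than left-out arrays they ranged from 1410 to 2661 in Ag+ (2557 in the reported fit), 1 to 230 in S-PVP-NW (194), 0 to 327 in L-SiO2-NW (138), 0 to 24 in L-PVP-NW (4) and 0 to 5544 in S-SiO2-NW (679). Rises made up 59.5% of the S-SiO2-NW calls, 81.7% with median centring and 13.5% at a common 75th percentile. In Ag+ these shares were 57.8%, 73.3% and 51.7%, in L-SiO2-NW 61.6%, 74.3% and 53.8%, and in S-PVP-NW 21.1%, 33.3% and 25.9%. The receptor and most monooxygenase values lie too near the floor for a fold.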
